A study of Mus musculus with 2 samples.

Results

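The genes described here are 8 transcription regulators whose transcripts respond to bone morphogenetic protein (BMP) signals: the inhibitors of DNA binding Id1, Id2, Id3 and Id4, the homeobox genes Msx1, Msx2 and Dlx5, and the basic helix-loop-helix gene Atoh8. They were chosen by gene name among the non-control probes of the arrays. Each of the 8 genes had 1 probe, so 8 of 39429 probes were used, and all 8 genes were among the 20104 genes tested. The data were 2 two-colour microarrays of mouse ureters dissected at stage E14.5, on each of which total RNA of a knockout sample competed with that of a control, and all 4 samples were of the NMRI strain. The knockout is labelled Smad4cKO (UE), with the genotype given as Pax-cre/+;Smad4(fl/fl) on the samples and as Pax2-cre/+;Smad4(fl/fl) in the title of the series, so a Cre transgene removes floxed Smad4 alleles in the cells where it is active. Control embryos were Smad4(fl/?), which leaves the second allele open and means that a floxed allele was present in both genotypes. UE is read here as ureteric epithelium, which the labels do not spell out. Whole ureters were taken, so cells without Cre activity contributed RNA to every sample. The labels call the samples of replicate 1 female, their knockout carrying Cy3, and those of replicate 2 male, their knockout carrying Cy5. The number of embryos per sample is not stated, nor whether the replicates came from separate litters, and p-values measure only the spread between these 2 arrays.

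BMP ligands bind paired serine/threonine kinase receptors, which phosphorylate SMAD1, SMAD5 and SMAD9. These join SMAD4, enter the nucleus and activate target genes, among which the Id genes are the best known direct ones. ID proteins carry a helix-loop-helix domain without a DNA-binding basic region and hold E proteins and other basic helix-loop-helix factors off DNA. MSX proteins are homeodomain repressors that act in many epithelial and mesenchymal tissues, DLX5 is a homeodomain activator of skeletal and sensory organ development, and ATOH8 is a basic helix-loop-helix factor. In the developing ureter, BMP4 from the mesenchyme acts on both the epithelium and the mesenchyme itself.

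The level of each gene is that of its probe, an oligonucleotide of 60 bases spotted 4 times per array. The probes of Msx1 and Msx2, which encode closely related proteins, are shown by their first 30 bases, because their ratios, given next, differ.
Msx1: acacttcctcctggttgtcgcttcctaaac
Msx2: cctgtccatctcttcccccagtatattttt
The longest run of bases that any of the 8 probes shared with another was 9 of 60, between those of Id2 and Msx2. Positions are those of the array design on mouse build mm9. The Msx2 probe lies at chr13:53562318-53562377, the Msx1 probe at chr5:38212305-38212364, the Dlx5 probe at chr6:6828063-6828122 and the Atoh8 probe at chr6:72156816-72156875. The Id1 probe lies at chr2:152563083-152563142, the Id2 probe at chr12:25778904-25778963 and the Id4 probe at chr13:48358668-48358727. The Id3 probe is placed at chr4:135700075-135700249, a span of 175 bases for a probe of 60. Which exons the probes lie in was not determined here, since no annotation of that build was used.

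Msx2 was the 1 of the 8 genes that passed the test across all genes, and it was higher in the samples labelled knockout. To pass, a gene needed an adjusted p under 0.05 in limma, which tests the mean of the log2 ratios of knockout over control against 0 and steadies each gene's spread with that of all genes. A log2 ratio above 0 means more signal in labelled knockout. The 46 genes that passed in that direction were 0.229% of the 20104 genes tested, and Msx2 ranked 24th from the top by mean ratio. None of the 8 genes passed in the other direction, where 20 genes (0.0995%) did. At an unadjusted limma p under 0.05, 4 of the 8 differed, against 4.55% of all genes: 3 were higher in labelled knockout (2.09% of all genes) and 1 was lower (2.46%). The directions follow the dyes given in the labels. The authors' deposited table holds signed folds of the opposite sign when the sample titles, which put the knockout first, are taken as the order of the ratio, with Msx2 at -1.71 on replicate 1 and -2.77 on replicate 2. The log2 ratio of Smad4 itself, labelled knockout over labelled control, was -0.58 on replicate 1 and -0.08 on replicate 2 at its brighter probe, and -0.09 and -0.33 at the other. It did not pass (adjusted p = 1.00 in limma), and whether either probe lies in the floxed part was not determined, so it does not check the labels.

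**Figure D1:**
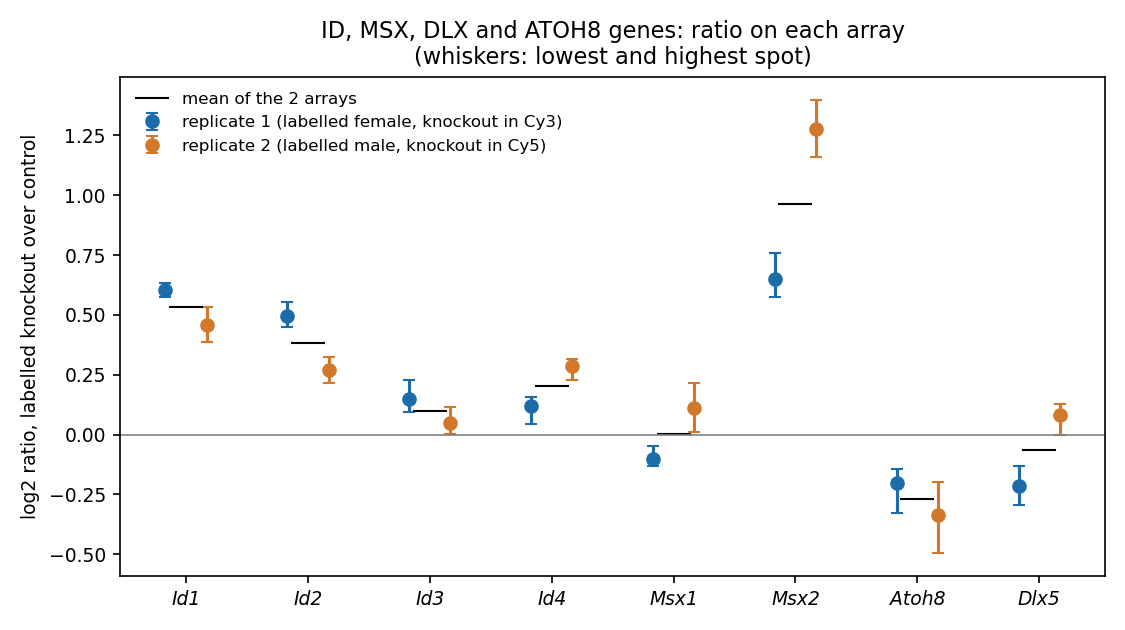
Log2 ratio of labelled knockout over labelled control (y axis) for each of the 8 genes (x axis), as the mean of the unmarked spots on replicate 1 (blue) and replicate 2 (orange), with whiskers from the lowest to the highest spot and a black bar at the mean of both arrays. Msx2 stands highest on both arrays, at 0.65 and 1.28, Id1 and Id2 lie above 0 on both, and Atoh8 lies below 0 on both.

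Msx2 encodes a homeodomain repressor that is a direct target of BMP signals in several epithelia. Its normalised log2 intensity was 9.76 in the knockout sample and 9.11 in the control sample of replicate 1, and 9.85 and 8.58 in those of replicate 2. Both knockout samples lay above both control samples, and the arrays differed more in the control (9.11 against 8.58) than in the knockout. Its log2 ratios of 0.65 and 1.28 averaged 0.96 ± 0.44 (SD, n = 2 arrays), or 1.95-fold. The limma adjusted p was 0.0359 and the 95% interval of the fold, not adjusted for the number of genes, ran from 1.54 to 2.47. Within an array the spots lay close together, from 0.57 to 0.76 on replicate 1 and from 1.16 to 1.40 over the 3 unmarked spots of replicate 2, so the gap between the arrays was wider than the spread of spots on either. It alone of the 8 was higher by 1.5-fold or more on both arrays, at 1.57-fold and 2.42-fold, as were 0.264% of all genes. The call did not hold with median centring in place of loess (adjusted p = 1.00), without a filter on dim probes (0.827) or with the channels as unpaired samples (0.146). These samples are bulk tissue, so more cells that express Msx2 and more Msx2 RNA per cell cannot be told apart.

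Msx1, which encodes the closest relative of MSX2, gave ratios close to 0. Its normalised log2 intensity was 8.13 in knockout and 8.23 in control on replicate 1, and 8.16 and 8.05 on replicate 2, so the genotypes overlapped. The log2 ratios of -0.10 and 0.11 gave a mean of 0.00381 ± 0.15 (SD, n = 2 arrays, limma adjusted p = 1.00), and the 95% interval of the fold ran from 0.829 to 1.21. The difference between Msx1 and Msx2 was not tested. Dlx5, a homeobox gene of the distal-less family, also went in opposite directions on the arrays. It read 7.64 in knockout and 7.85 in control on replicate 1, and 8.08 and 7.99 on replicate 2, so both samples of replicate 2 lay above both of replicate 1. Its log2 ratios of -0.21 and 0.08 averaged -0.07 ± 0.21 (SD, n = 2 arrays), with a 95% interval of the fold from 0.785 to 1.16 (adjusted p = 1.00). Across all genes, 53.7% went in opposite directions on the 2 arrays, as Msx1 and Dlx5 did. The relatives fixed beside them were Msx3 and Dlx1, Dlx2, Dlx3, Dlx4 and Dlx6. Of these 6 genes, Dlx4 and Dlx6 did not pass the filter on dim probes and none of the other 4 passed the test. Among those 4, Dlx2 read -0.18 ± 0.08, Dlx3 0.09 ± 0.19 and Dlx1 -0.05 ± 0.04 (SD, n = 2 arrays).

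**Figure D2:**
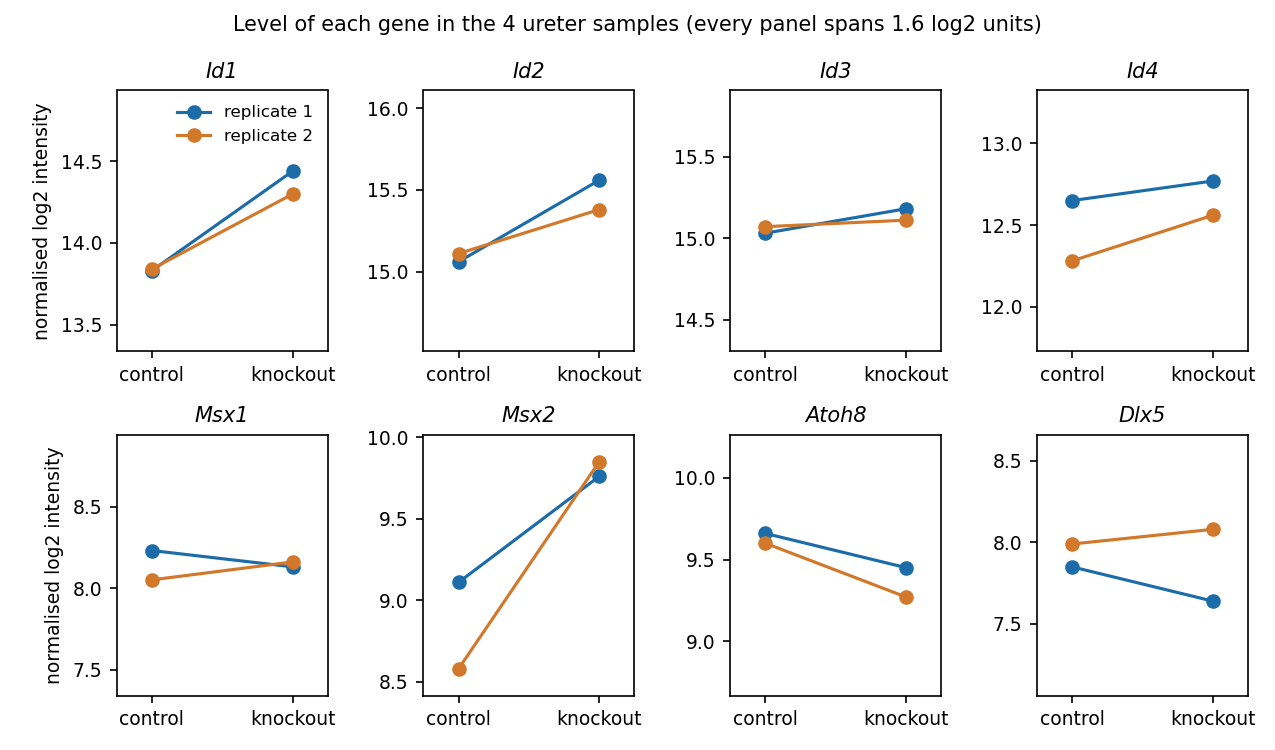
Normalised log2 intensity (y axis) of each of the 8 genes in the control and the knockout sample of replicate 1 (blue) and replicate 2 (orange), each line joining the samples hybridised to one array and each panel spanning the same range. Id1, Id2, Id3 and Msx2 have both knockout points above both control points, Atoh8 has both below, and Id4, Msx1 and Dlx5 overlap.

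Id1 and Id2 had the next largest ratios after Msx2, and neither passed the test. Id1, which encodes an inhibitor of basic helix-loop-helix factors that BMP signals induce in many cell types, read 14.44 in knockout and 13.83 in control on replicate 1, and 14.30 and 13.84 on replicate 2 (normalised log2 intensity). The control samples were nearly equal and both knockout samples stood above them. The log2 ratios of 0.60 and 0.46 gave a mean of 0.53 ± 0.10 (SD, n = 2 arrays), or 1.45-fold with a 95% interval from 1.20 to 1.74. In limma the unadjusted p was 0.00130 and the adjusted p 0.197, and the gene ranked 128 from the top by mean ratio. The spots ran from 0.58 to 0.63 on replicate 1 and from 0.39 to 0.53 on replicate 2. With median centring the ratios of Id1 were 0.44 on replicate 1 and 0.66 on replicate 2, so which array was higher depended on the normalisation.

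Id2, which encodes an inhibitor of the same kind found in many epithelial progenitors, read 15.56 in knockout and 15.06 in control on replicate 1, and 15.38 and 15.11 on replicate 2. Here too both knockout samples were above both controls, by less on replicate 2. The ratios of 0.50 and 0.27 gave 0.38 ± 0.16 (SD, n = 2 arrays), or 1.30-fold with a 95% interval from 1.08 to 1.58, and limma gave an unadjusted p of 0.0114 and an adjusted p of 0.647. The SD of Id2 between arrays was above that of its spots, 0.0433 on replicate 1 and 0.0459 on replicate 2. With median centring its ratios were 0.23 on replicate 1 and 0.63 on replicate 2, so here too the higher array changed.

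Id3 and Id4 showed smaller ratios. Id3, an inhibitor much expressed in vessels and mesenchyme, read 15.18 in knockout and 15.03 in control on replicate 1, and 15.11 and 15.07 on replicate 2, and its log2 ratio was 0.15 and 0.05. The mean was 0.10 ± 0.07 (SD, n = 2 arrays, limma adjusted p = 1.00), and 41.5% of genes had a mean of at least that size. With median centring the ratio of Id3 on replicate 1 turned to -0.10, against 0.39 on replicate 2. Id4, the family member best known from brain and mammary gland, read 12.77 in knockout and 12.65 in control on replicate 1, and 12.56 and 12.28 on replicate 2. The control of replicate 1 was above the knockout of replicate 2, so the genotypes overlapped, although the knockout was the higher sample on each array. Its ratios of 0.12 and 0.29 gave 0.20 ± 0.12 (SD, n = 2 arrays, adjusted p = 1.00). The 95% interval of the fold ran from 0.889 to 1.29 for Id3 and from 0.954 to 1.39 for Id4. All 4 ID genes were thus above 0 on both arrays, as were 21.7% of all genes, and with median centring 3 of the 4 were, as were 24.6% of all genes.

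Atoh8 was the 1 of the 8 genes below 0 on both arrays, as were 24.6% of all genes tested. It read 9.45 in knockout and 9.66 in control on replicate 1, and 9.27 and 9.60 on replicate 2, so both control samples lay above both knockout samples. The ratios of -0.20 and -0.34 gave a mean of -0.27 ± 0.09 (SD, n = 2 arrays), with a 95% interval of the fold from 0.689 to just under 1.00. In limma the unadjusted p was 0.0496 and the adjusted p 1.00, and the gene ranked 660 from the bottom by mean ratio. Its spots ran from -0.33 to -0.14 on replicate 1 and from -0.49 to -0.20 on replicate 2, none of them above 0.

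Over the 8 genes the median log2 ratio was 0.15, against -0.00438 over all 20104 genes, with 0.13 on replicate 1 and 0.19 on replicate 2. For the 4 ID genes alone it was 0.29, with 0.32 and 0.28 on the arrays. For 4 of the 8 genes both knockout samples lay above both control samples, against 13.9% of all genes, and for 1 both controls lay above both knockouts, against 15.3%. The genes were chosen with these values known, so these counts describe them and are no test. The arrays also allow the ratio to be split into its mean over both arrays and a part that turned with dye orientation and sex. With 2 arrays the second part also holds any other difference between the replicates, and these sources cannot be told apart. The second part, as the mean log2 ratio of Cy5 over Cy3, was 0.31 for Msx2, against 0.96 for the mean. It lay between -0.11 (Id2) and 0.15 (Dlx5) for the others. Its median size over all genes was 0.0872, close to the 0.0802 of the mean, and for Msx1 and Dlx5 the second part was the larger.

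**Figure D3:**
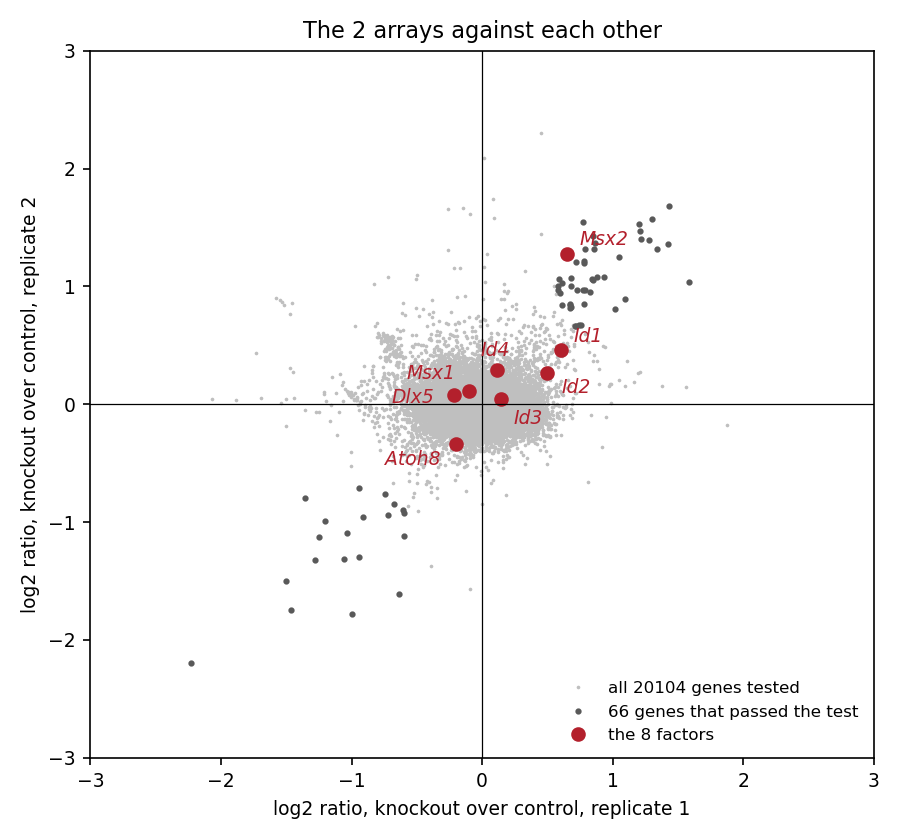
Log2 ratio of labelled knockout over control on replicate 1 (x axis) and replicate 2 (y axis) for all 20104 genes tested (light grey), the 66 that passed the test (dark grey) and the 8 genes described here (red, named). Msx2, at 0.65 and 1.28, lies among the dark points at the upper right, and the other 7 lie among or at the edge of the light points.

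Genes whose pair of ratios lay nearest to each pattern, by Euclidean distance over the 2 arrays, were named by a set rule. Genes that kept their name from the array files, without a RefSeq match, were left out of this ranking and of the counts below. Nearest to Msx2 were 3830417A13Rik (0.72 and 1.21), Mir205hg, the host transcript of an epithelial microRNA (0.78 and 1.21), and Cbr2, a carbonyl reductase gene (0.79 and 1.32). Each of these passed the test, with limma adjusted p of 0.0211, 0.0140 and 0.0140. Only 1 gene lay within 0.1 of Msx2. Within that distance of Id1 there were 20 genes, led by 2200002D01Rik (0.60 and 0.44), the peptide hormone gene Apela (0.60 and 0.49) and the carbonic anhydrase gene Car3 (0.57 and 0.46), none of the 3 passing the test (adjusted p from 0.176 to 0.213). Within 0.1 of Atoh8 there were 117 genes, with Trav3-3, Stard13 and Cbfa2t3 the nearest and none of these 3 passing (adjusted p = 1.00 each). With 2 arrays a pair of ratios is the whole pattern, so nearness describes these arrays. The test uses the same pair of ratios, so whether a near gene passed follows from its nearness and is no separate result.

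Other genes of the BMP pathway did not pass the test in either direction. Of 20 further targets of BMP and SMAD signals, 16 passed the filter and none passed the test. Of the 16, 4 were above 0 and 1 below 0 on both arrays, against 21.7% and 24.6% of all genes. Bambi, Grem1, Runx2 and Hamp did not pass the filter. The largest means in this list were those of the T-box genes Tbx2 (0.22 ± 0.07) and Tbx3 (-0.21 ± 0.24) and of Hand1, a basic helix-loop-helix gene (0.15 ± 0.42, SD, n = 2 arrays). Their median was -0.04 on the first array and 0.11 on the second.

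Among 8 BMP ligand genes none passed, and Bmp4, the main ligand of the ureteric mesenchyme, read -0.40 on replicate 1 and -0.19 on replicate 2 (limma unadjusted p = 0.0396, adjusted p = 1.00). Gdf6 read -0.26 ± 0.02 and Bmp5 0.25 ± 0.46 (SD, n = 2 arrays). None of 7 receptor genes passed. Of these, 5 were below 0 and none above 0 on both arrays, against 24.6% and 21.7% of all genes. The largest means were those of the type I receptor gene Acvr1 at -0.22 ± 0.00154, Acvr2b at -0.17 ± 0.16 and Bmpr2 at -0.17 ± 0.00818. Of 6 SMAD genes none passed, with Smad6, an inhibitory SMAD, at 0.12 ± 0.21, Smad7, another, at -0.11 ± 0.37 and Smad4 at -0.33 ± 0.36. Of 9 antagonist genes 7 were tested and none passed, with Fst, which encodes follistatin, at -0.23 ± 0.28, Sostdc1 at -0.22 ± 0.18 and Chrdl1 at -0.14 ± 0.16.

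The basic helix-loop-helix factors that ID proteins bind or antagonise formed a list of 20 genes, of which 17 were tested and none passed. Myf5, Msc and Neurod1 did not pass the filter. Twist2, a mesenchymal factor, read -0.21 ± 0.24 and Tal1, a blood and vessel factor, -0.19 ± 0.21 (SD, n = 2 arrays). The list median was -0.06, with 3 genes above 0 and 5 below 0 on both arrays, against 21.7% and 24.6% of all genes.

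**Figure D4:**
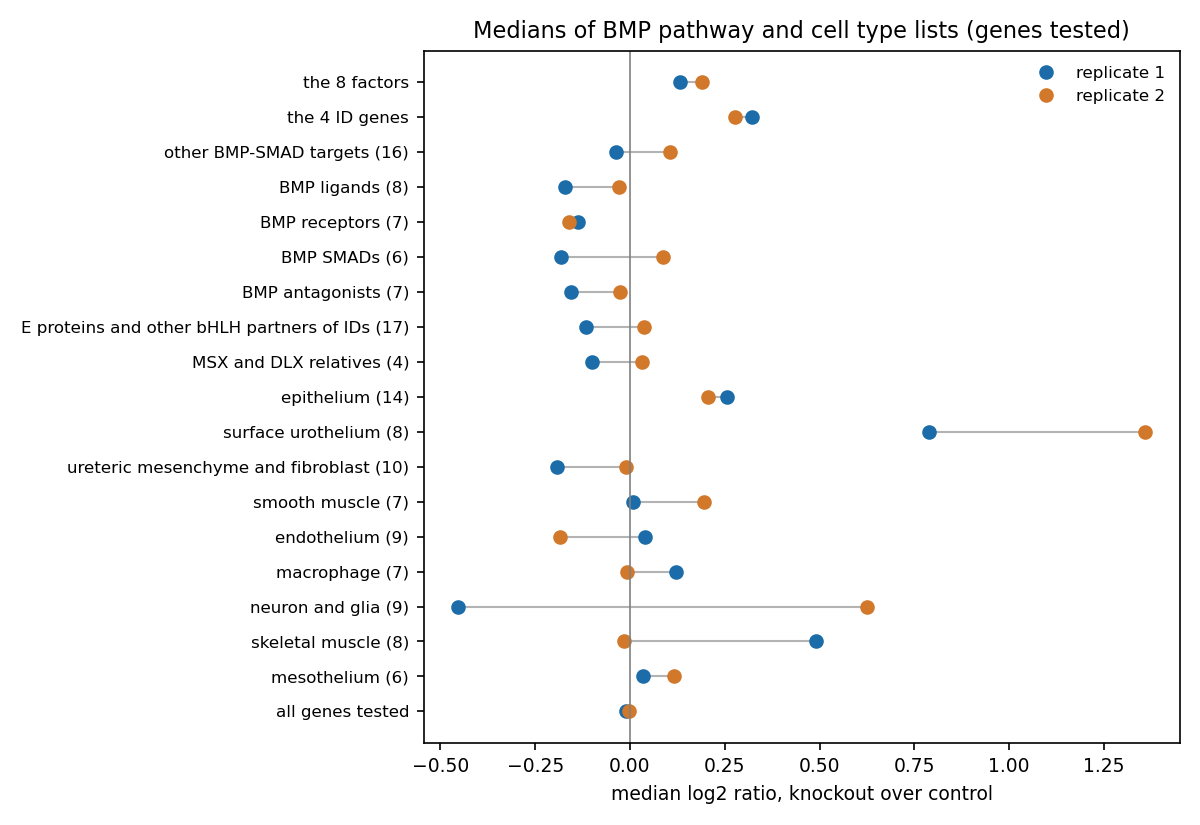
Median log2 ratio of labelled knockout over control (x axis) on replicate 1 (blue) and replicate 2 (orange) for the 8 genes, the 4 ID genes, 7 lists of BMP pathway genes, 9 lists of cell type markers and all genes tested, with the number of genes tested in brackets. The surface urothelium list lies farthest to the right, at 0.79 and 1.36, the medians of the 7 BMP pathway lists lie between -0.18 and 0.11, and the neuron and glia list lies on opposite sides on the arrays.

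Markers of the cell types of the ureter were read beside these genes. For comparison with the counts below, 21.7% of all genes were above 0 and 24.6% below 0 on both arrays. All 14 epithelial markers and all 10 markers of ureteric mesenchyme and fibroblasts were above the filter. That shows that their transcripts were detected and does not measure the share of a tissue. Of 8 markers of surface urothelium, 6 passed, each higher in labelled knockout, led by the uroplakin genes Upk3a (1.55 ± 0.18) and Upk1a (1.36 ± 0.23, SD, n = 2 arrays), and all 8 were above 0 on both arrays. Their summed intensity was 25701 in knockout and 12717 in control on replicate 1, and 24284 and 10434 on replicate 2. Of the 14 epithelial markers none passed and 11 were above 0 on both arrays, with Krt19 at 0.53 ± 0.05 and Cldn4 at 0.33 ± 0.15, and with a summed intensity of 256613 in knockout and 221330 in control on replicate 1, and 228900 and 210039 on replicate 2. Of the 10 mesenchymal markers none passed, 6 were below 0 on both arrays and 2 were above 0 on both. Those with the largest means were Foxf1 at -0.70 ± 0.43 and Col1a1 at -0.48 ± 0.19. Summed intensities in knockout and control were 663243 and 794425 on replicate 1 and 708359 and 722643 on replicate 2. Msx2 and the 4 ID genes were above 0 on both arrays, as were 11 of the 14 epithelial and all 8 surface markers. The summed intensities of the macrophage and skeletal muscle markers, given below, were also higher in knockout on both arrays. A shared direction therefore does not single out a cell type, and the part of cell composition in the ratios of these genes was not tested.

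Vessel, muscle, blood and nerve cells also contribute to dissected ureters. None of 9 endothelial markers passed, all 9 were above the filter and 4 were below 0 on both arrays, with Flt1 at -0.37 ± 0.09 and Cdh5 at -0.36 ± 0.25 (SD, n = 2 arrays). Their summed intensity was lower in knockout on both arrays, 35611 against 39095 on replicate 1 and 29842 against 35502 on replicate 2. Their median log2 ratio was 0.04 on replicate 1 and -0.19 on replicate 2. Vessels express Id1 and Id3, and the part of vessel cells in the ratios of these genes was not tested. None of 7 smooth muscle markers passed, with Myocd at -0.44 ± 0.33 and Acta2 at 0.24 ± 0.23, and summed intensities in knockout and control of 21297 and 22104 on replicate 1 and of 20513 and 17296 on replicate 2. Of 8 macrophage markers 7 were tested and none passed, with Lyz2 at 0.39 ± 0.30 and C1qb at 0.13 ± 0.20, and summed intensities of 12828 and 12553, and of 14125 and 14041. None of 9 neuronal and glial markers passed, and their median turned from -0.45 on one array to 0.63 on the other, with Th at 0.35 ± 0.51 and summed intensities of 105620 and 151923, and of 125228 and 122168. None of 8 skeletal muscle markers passed, whose median was 0.49 on the first array and -0.02 on the second, with Myh8 at 0.85 ± 1.00 and Tnnc2 at 0.56 ± 0.58, and summed intensities of 7655 and 4763, and of 5838 and 5512. Of 6 mesothelial markers 1 passed, Upk3b, which the surface urothelium list also holds (0.77 ± 0.24), and Msln read 0.41 ± 0.14, with summed intensities of 14425 and 16564, and of 18210 and 16368. Msx2 and Id1 were above 0 on both arrays, while the neuron and glia list changed sides by its median and its summed intensity, and the part of these cells in their ratios was not tested.

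RefSeq promoter windows of build GRCm38.p6, from 250 bases before to 50 after a gene's start, matched 6 of the 8 genes, namely Id2, Id3, Id4, Msx1, Msx2 and Atoh8. The windows of Msx2 and Id2, above 0 on both arrays, are shown with those of Msx1, near 0, and Atoh8, below 0, so that their letters can be compared. They lie at chr13:53472731-53473030 for Msx2, chr12:25096043-25096342 for Id2, chr5:37824536-37824835 for Msx1 and chr6:72235528-72235827 for Atoh8, all on the minus strand and written 5′ to 3′ along the gene. Capitals mark matches on either strand to GGCGCC or GGAGCC, GC-rich letters bound by BMP SMADs, or to GTCTG, a SMAD box.
Msx2: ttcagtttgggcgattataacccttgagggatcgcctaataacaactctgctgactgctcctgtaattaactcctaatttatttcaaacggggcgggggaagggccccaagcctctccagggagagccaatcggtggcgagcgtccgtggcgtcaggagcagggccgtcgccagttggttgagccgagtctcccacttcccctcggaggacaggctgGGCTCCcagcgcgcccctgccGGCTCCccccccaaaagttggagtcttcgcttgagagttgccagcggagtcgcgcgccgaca
Id2: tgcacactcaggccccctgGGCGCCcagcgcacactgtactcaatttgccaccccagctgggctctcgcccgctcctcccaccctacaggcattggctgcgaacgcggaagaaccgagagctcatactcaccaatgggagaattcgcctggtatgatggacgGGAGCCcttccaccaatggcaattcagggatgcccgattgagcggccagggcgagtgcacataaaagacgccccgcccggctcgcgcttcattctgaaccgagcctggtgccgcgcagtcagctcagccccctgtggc
Msx1: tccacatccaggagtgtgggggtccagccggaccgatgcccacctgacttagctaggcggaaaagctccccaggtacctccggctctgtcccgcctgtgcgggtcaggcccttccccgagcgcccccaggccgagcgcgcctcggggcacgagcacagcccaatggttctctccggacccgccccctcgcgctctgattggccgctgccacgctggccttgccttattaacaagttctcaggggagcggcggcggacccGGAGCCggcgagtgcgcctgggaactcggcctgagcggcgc
Atoh8: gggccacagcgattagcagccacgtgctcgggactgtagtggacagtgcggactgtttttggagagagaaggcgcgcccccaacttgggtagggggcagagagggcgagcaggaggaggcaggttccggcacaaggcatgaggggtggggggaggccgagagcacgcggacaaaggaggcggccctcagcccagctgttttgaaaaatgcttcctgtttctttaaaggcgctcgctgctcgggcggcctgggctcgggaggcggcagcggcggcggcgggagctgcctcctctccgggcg
GGAGCC was found in 5 of the 6 windows and in 30.8% of all 32851 windows, with 2 matches in Msx2, 1 each in Id2, Id3, Id4 and Msx1 and none in Atoh8. GGCGCC was found in Id2 and Id4 and in 11.9% of all windows. GTCTG was found in Id3 alone of the 6 and in 49.6% of all windows. The full SMAD box GTCTAGAC was in none of the 6 and in 0.213% of all windows. E-boxes, CANNTG, were found in 4 of the 6 windows and in 72.3% of all, and the form CACGTG, which CANNTG includes, in Atoh8 alone of the 6 and in 7.15% of all. The homeodomain letters TAATTG were in none of the 6 and in 8% of all. The 6 windows held between 60.0% and 73.3% G and C, against a median of 52.7% over all windows. Whether matches in these windows bear on the ratios was not tested. A match describes letters and not a bound site.

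**Figure D5:**
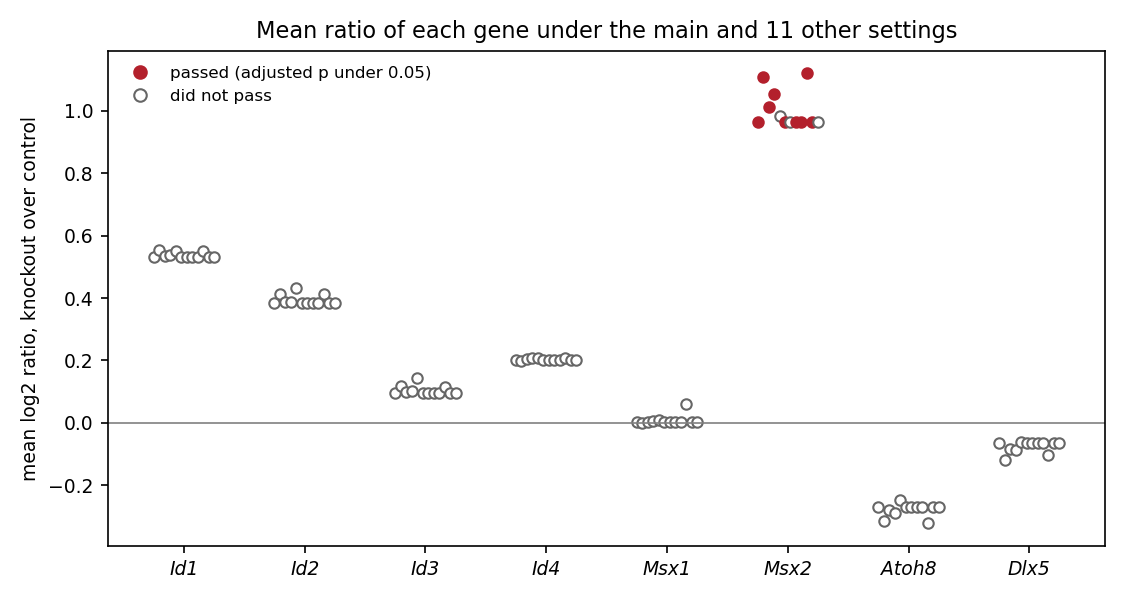
Mean log2 ratio of labelled knockout over control (y axis) for each of the 8 genes (x axis) under the main setting and 11 alternatives, filled where the gene passed at an adjusted p under 0.05 and open where it did not. Msx2 ran from 0.96 to 1.12 and passed in 8 of the 11 alternatives, and the other 7 genes passed in none. Aquantile, no filter, a stricter filter, the mean over probes, a prior with trend and unpaired channels keep each gene's main ratio.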

How the data were processed

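Per the submitters' processing notes and the file headers, each array's spot intensity came from Agilent Feature Extraction, version 10.7.3.1, with probe positions on mm9. The deposited files also give processed intensity, corrected for spatial trend and between dyes by that software, and the log10 of red over green. For each of 39429 probes the authors' deposited table lists a score, here a signed fold, whose median is 1 on each array. Its scaling and centring are not stated. Against processed signals its signed log2 correlated with knockout over control at -0.822 and -0.739, so it was turned, and it was used as an alternative.

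Mean signals were corrected by normexp (offset 50), loess-normalised, giving control spots a weight of 0, and averaged over the spots of a probe after leaving out marked outliers (3.52% and 3.66% of probe spots). No spot was saturated. Channel levels were scaled between arrays by Aquantile. Probes with 2 or more spots well above background on both arrays, in 1 genotype or both, were kept, 26522 in all, and a gene was its brightest kept probe. Names were updated through RefSeq (GRCm38.p6). The match was through the accession for 28328 probes, a current symbol for 3400 and a former one for 243, while 7458 stayed as named in the files. Ratios were tested against 0 with limma 3.58.1 (R 4.3.3), two-sided, at a threshold of 0.05 after adjusting over 20104 genes by Benjamini-Hochberg. A gene's own spread gave 1 degree of freedom and the prior shared by all genes 9.21, so the prior weighs more. In data simulated with noise drawn from that prior, the fit recovered 34 of 67 genes planted at 1.5-fold. At 2-fold it recovered 66 of 67, and at 3-fold 66 of 66. The simulated noise follows the fitted model and holds no part that turns with dye or sex. These counts therefore describe the fit and not the recovery to be had from the real arrays. The input was 150 ng of RNA per sample, per the labels. Slide and scan were shared by both arrays, per the file headers, and the number of arrays limits precision.

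The members, the lists and the rule for named genes were chosen with earlier results of these data known. Named were all members with their probes, Smad4, up to 3 genes with the largest absolute mean per pathway list and up to 2 per cell type list, genes that passed, and the 3 genes nearest to Msx2, Id1 and Atoh8. Some genes that this rule names are not reported here. Alternatives were median centring, Aquantile, processed signals, an offset of 0, uncorrected signals, no filter or a stricter one, the mean over probes, the authors' values, a prior with trend, unpaired channels and each array alone. Plots were drawn with matplotlib 3.10.9.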

Additional observations from a re-analysis of the deposited data

Results flagged for a closer look

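Msx1 and Dlx5 moved in opposite directions on the array labelled female and the array labelled male. The log2 ratio of knockout over control was -0.10 on replicate 1 and 0.11 on replicate 2 for Msx1, and -0.21 on replicate 1 and 0.0817 on replicate 2 for Dlx5. The difference was not tested, since each sex had 1 array and dye orientation changed with sex, and 53.7% of all genes did the same.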

How the results depend on the processing

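The count of 1 member that passed, Msx2, became 0 with median centring, 0 without a filter and 0 with 4 unpaired channels, where the number of all genes that passed went from 66 to 0, 0 and 26, with 347, 1097 and 777 genes at an unadjusted limma p under 0.05. The cause was not tested. The main ratios already pair the samples of an array, and the unpaired channels are the fit without that pairing. In the other 8 settings Msx2 passed, with limma adjusted p from 0.000889 to 0.0359, and its log2 ratio ran from 0.96 to 1.12. Of these, Aquantile gave the main fit again, with 66 genes passing. A stricter filter, the mean over probes and a prior with trend kept the main ratio of Msx2, so they did not measure it anew. The count of all genes that passed was 194 with processed signals, 191 with the authors' values, 156 with a prior with trend, 131 with an offset of 0, 115 without background correction and 89 with a stricter filter or with the mean over probes. None of the other 7 members passed in any of the 11 settings, with the lowest adjusted p for Id1, 0.0753. Of the other pathway genes 0 passed in the main setting, with 3 at an unadjusted limma p under 0.05, Bmp4 and Smad4 among them, all lower in labelled knockout, and 1 passed with processed signals, an offset of 0, the authors' values and a prior with trend. The count of members at least 1.5-fold apart on each array stayed at 1 in all 11 settings. With Aquantile, no filter, a stricter filter, the mean over probes, a prior with trend or unpaired channels, the members kept their main ratios. Those settings could therefore move neither this count nor the members' median. The median of the members was 0.13 from the first array and 0.19 from the second when each stood alone, with no test, and from 0.15 to 0.18 in the 11 settings.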

Other observations

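In the authors' deposited table the signed folds of the 8 genes had the sign opposite to the ratios above on each array, with Id1 at -1.55 on replicate 1 and -1.39 on replicate 2, Id2 at -1.42 and -1.25, Atoh8 at 1.17 and 1.34, Id4 at -1.09 and -1.22, Id3 at -1.11 and -1.06, Msx1 at 1.07 and -1.16, and Dlx5 at 1.26 and -1.09.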
